A study of Mus musculus with 20 samples.

Results

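Described here are 9 genes of transcription and chromatin regulation in LβT2 cells, a mouse pituitary gonadotrope line, under pulses of gonadotropin-releasing hormone (GnRH). They are the sequence-specific or repressor-type factors Hes6, Tcf4, Zbtb17 and Maf1, the chromatin proteins Kat2a, Smarce1, Setd4 and Ash2l, and the helicase Recql5. The genes were selected on measured values of these same arrays, as regulators that were lower with GnRH, with pulse number or with dose. Each has 1 probe set on the array by the platform annotation, so the set is 9 of 12488 probe sets and 9 of 6216 genes with a tested probe set. All 9 passed the filter on low signals, some of them only on the arrays where they were high, and no gene was left out.

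The cells were held on microcarrier beads and perifused for 4 h, and RNA was then measured on 20 Affymetrix arrays in 10 groups of 2. In 1 group the cells had no GnRH (unstimulated). At 100 nM GnRH there were 5 groups, which saw 1, 2, 4 or 8 pulses, each lasting 2 min, or steady (tonic) hormone. At 10 nM there were 4, with 1, 4 or 8 pulses or tonic hormone. All groups are the same line in serum-free medium; it is a transformed line, and beads in a column are not a pituitary.

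GnRH acts on a receptor coupled to G proteins, and its pulse pattern is known to set which gonadotropin subunit genes the gonadotrope transcribes. The factors described here act at several levels. Basic helix-loop-helix proteins such as Tcf4 and Hes6 bind E boxes and related elements or hold such factors in check, zinc finger and repressor proteins such as Zbtb17 and Maf1 set promoter output of RNA polymerase II and III, and the remaining proteins acetylate, methylate, move or unwind the chromatin template.

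Promoter sequences (RefSeq, GRCm38.p6, 250 bases before to 50 after a start) matched 5 of the 9 genes, with 7 promoters. They were searched on both strands for an Egr site (GCGNGGGCG), an AP-1 site (TGANTCA) and a cyclic AMP element (TGACGTCA). Also sought were an E box, in its CACGTG form alone, and an N box (CACNAG), which Hairy and Enhancer of split proteins bind. The 3 windows that held any of these letters are shown, 5′ to 3′, with the matches in capitals. The second Hes6 start (chr1:91413173-91413472, minus strand) holds an N box match 237 bases before the start and another 15 after it, the Setd4 window (chr16:93603766-93604065, minus strand) holds N box matches 207 before and 37 after, and the Recql5 window (chr11:115933443-115933742, minus strand) holds an AP-1 match 150 before.
Hes6: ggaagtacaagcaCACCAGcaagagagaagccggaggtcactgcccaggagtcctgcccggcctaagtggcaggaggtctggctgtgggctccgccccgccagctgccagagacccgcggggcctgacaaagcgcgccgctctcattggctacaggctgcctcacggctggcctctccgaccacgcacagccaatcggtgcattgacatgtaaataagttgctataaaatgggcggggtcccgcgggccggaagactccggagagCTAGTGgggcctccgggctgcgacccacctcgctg
Setd4: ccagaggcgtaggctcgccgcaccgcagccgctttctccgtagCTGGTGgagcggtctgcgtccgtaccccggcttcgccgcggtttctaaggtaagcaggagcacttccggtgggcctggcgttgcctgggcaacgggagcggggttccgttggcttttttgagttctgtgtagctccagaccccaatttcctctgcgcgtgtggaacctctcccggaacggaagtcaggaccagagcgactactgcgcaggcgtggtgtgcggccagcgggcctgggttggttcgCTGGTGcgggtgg
Recql5: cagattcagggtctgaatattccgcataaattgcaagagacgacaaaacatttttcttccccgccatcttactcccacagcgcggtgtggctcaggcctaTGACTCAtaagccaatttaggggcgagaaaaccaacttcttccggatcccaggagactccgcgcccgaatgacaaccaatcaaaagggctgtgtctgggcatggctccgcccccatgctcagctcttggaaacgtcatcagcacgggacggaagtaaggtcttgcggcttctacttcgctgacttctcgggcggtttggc
Of 32851 promoters of that length in the table, 42.5% hold an N box match, 7.81% an AP-1 match, 5.55% an Egr match, 7.15% a CACGTG match and 1.79% a cyclic AMP element. The first Hes6 start, both Zbtb17 starts and the Kat2a start held none of these letters in the window. Tcf4, Maf1, Smarce1 and Ash2l had no entry.

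Signals are linear array intensities. Arrays had been scaled to a common trimmed mean, their medians ran from 705 to 836, and precision is limited by there being 2 arrays a group. Groups follow the sample titles, which another label field contradicts in 8 of the 20 samples. When the arrays were regrouped by that other field, limma called 0 of the 8491 probe sets in each of the 6 comparisons used here, and between 72 and 1057 had an unadjusted p under 0.05. A letter in the sample code, of unstated meaning, is A or D on unstimulated and 100 nM arrays and B or C on 10 nM arrays. A difference that involves both 10 nM arrays and others therefore cannot be told apart from a difference between letters. The Gapdh 3′ to 5′ ratio, a sign of RNA quality, was over 1.2 on 3 arrays (4 pulses 100 nM A and D, and 8 pulses 100 nM A) and 0.90 to 1.08 on the other 17. Of 10 gonadotrope markers on the array 9 passed the filter, all but Fshb; Cga ran from 72648 to 137496 and Lhb from 2083 to 4285. At 100 nM against unstimulated Cga and Scg2 were called higher (0.51 ± 0.15 and 0.59 ± 0.13, limma adjusted p = 0.032 and 0.00546), calls lost without either unstimulated array and under quantile normalisation, where Cga was at -0.00. Pitx1 was called lower with pulse number at 100 nM (-0.23 per doubling, adjusted p = 0.044, lost without 1 pulse D, 8 pulses D or any of several other arrays) and, from 10 to 100 nM, Pitx1 (-0.46) and Nr5a1 (-0.26) lower and Scg2 (0.34) higher, Scg2 and Nr5a1 no longer called without the arrays of high Gapdh ratio and Nr5a1 also without any of several single arrays. Of 14 markers of other cells 9 passed it, while Pomc, Tshb, S100b, Ptprc and Krt5 did not pass. Gh (2141 to 3134), Drd2 (1212 to 2799), Col1a1 (1379 to 2156), Ghrhr and Pecam1 were over the filter level on all 20 arrays. Gh thus lay in the range of Lhb. At 100 nM Crhr1 and Cd68 were called higher than unstimulated (log2 change 1.53 ± 0.29 and 1.34 ± 0.24, limma adjusted p = 0.00211 and 0.0013) and Prl lower (-1.27 ± 0.29, adjusted p = 0.00598), with Prl over the filter level on 4 arrays. These calls were lost without unstimulated D (Crhr1), A (Cd68) or either (Prl). The Prl value hardly moved in those fits (-1.28 without A, -1.27 without D). Crhr1 went to 1.09 without D and Cd68 to 1.09 without A. Crhr1 and Cd68 were also called higher with pulse number at 100 nM (0.63 and 0.42 per doubling), and Cd68 from 10 to 100 nM (0.93). Both trend calls were lost without 1 pulse A and without the arrays of high Gapdh ratio. That of Cd68 was lost without 1 pulse D or 8 pulses A as well. The part of all these markers in the results was not tested. In bulk RNA, fewer cells with a transcript and less of it per cell cannot be told apart. The labels name no separate cultures, and p-values then reflect the spread between these samples alone, which may be technical.

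**Figure D1:**
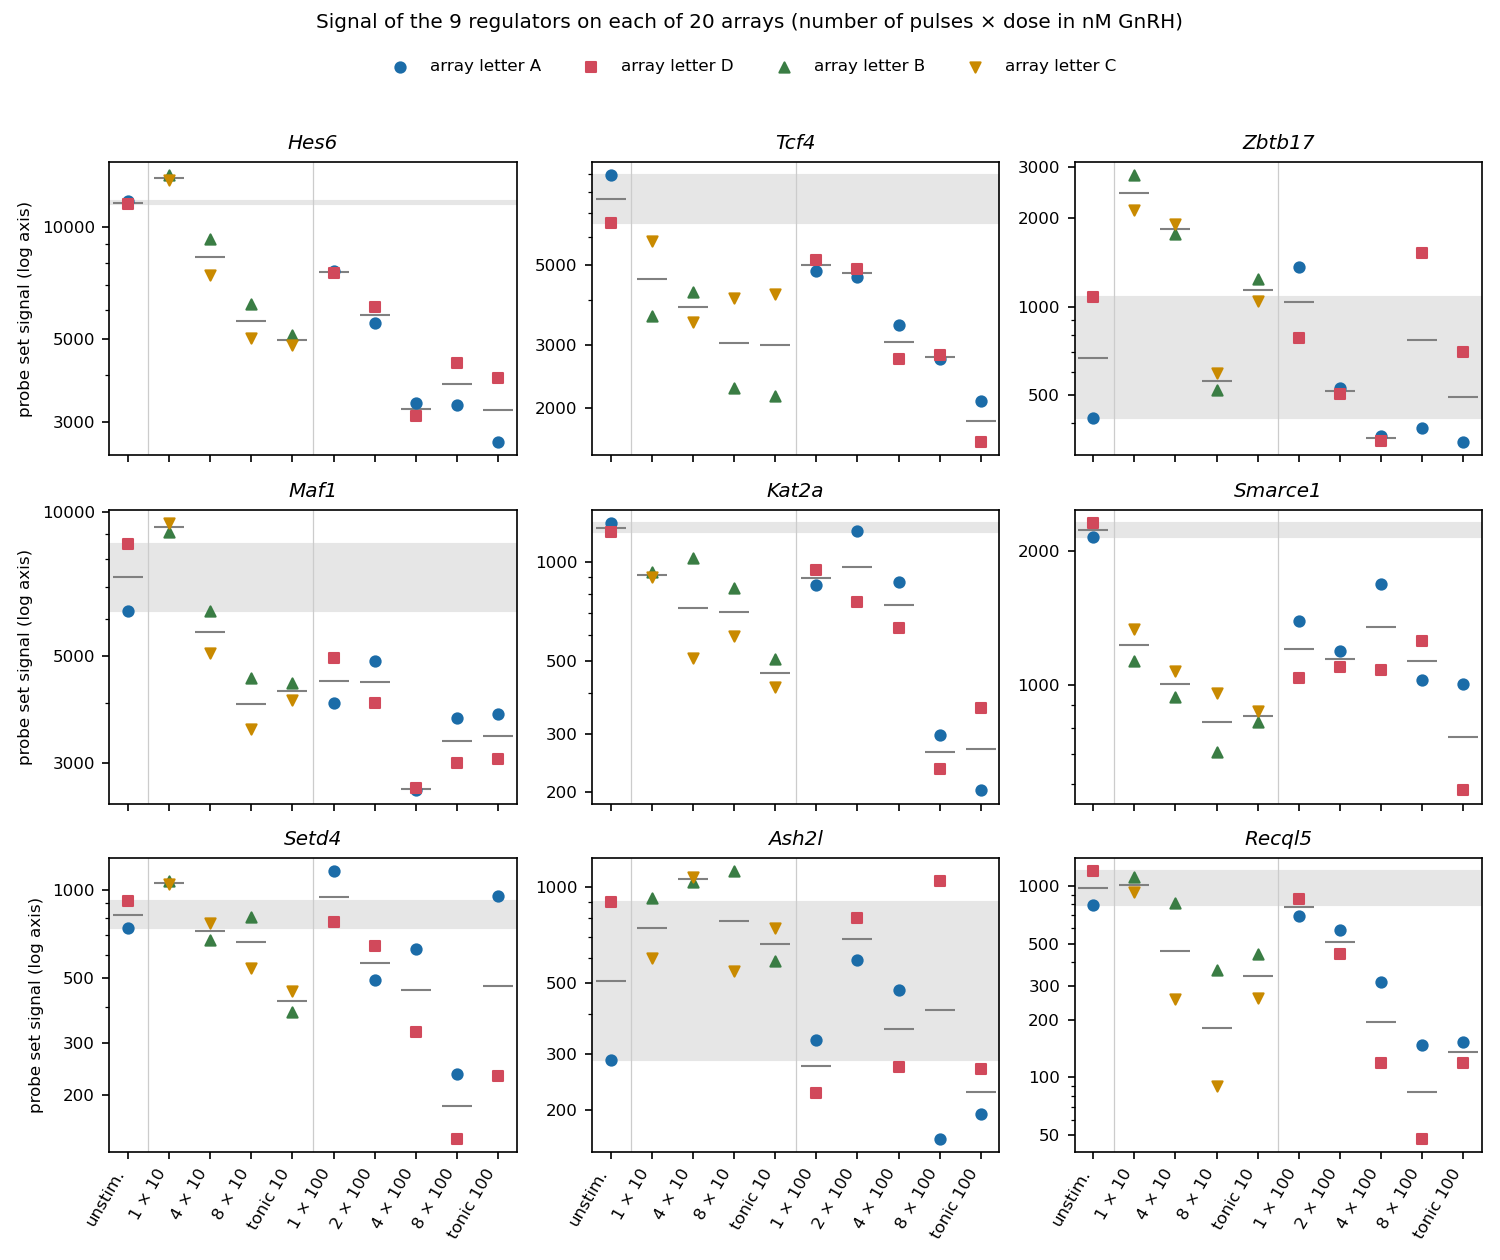
Signal of each regulator on each of the 20 arrays (log axis) against the 10 groups, named by pulses × dose in nM; symbols give the array letter, grey dashes the geometric group mean and the grey band the span of the unstimulated arrays. Tcf4 and Smarce1 lie under the band on 18 of 18 GnRH arrays, whereas Zbtb17 and Ash2l have arrays above it, within it and below it. The genes were chosen as lower, and the share of all probe sets that lie under their band was not counted.

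Hes6 (chromosome 1, 91411483 to 91414038 in GRCm38.p6) encodes a helix-loop-helix protein of the Hairy family that is known to counter Hes1 and to favour neural and neuroendocrine differentiation. Its signal was 11691 and 11464 on unstimulated arrays A and D. At 100 nM Hes6 was 7614 and 7515 after 1 pulse, 5524 and 6082 after 2, 3379 and 3127 after 4, 3342 and 4330 after 8, and 2655 and 3932 under tonic GnRH. At 10 nM Hes6 was 13730 and 13285 after 1 pulse, 9276 and 7424 after 4, 6227 and 5030 after 8, and 5144 and 4815 under tonic GnRH (arrays B and C). After 1 pulse at 10 nM both arrays were above both unstimulated arrays, and the other 16 GnRH arrays were below them. Here and for the genes below, the share of all probe sets with arrays placed so was not counted. Nothing is read from such counts, since the genes were chosen as lower. The group order ran from 1 pulse 10 nM at 117% of the unstimulated mean to 4 pulses 100 nM at 28.1%, and 5 of the 9 neighbouring pairs in that order overlapped. Both arrays of 4 pulses 100 nM have a high Gapdh ratio. The log2 change of Hes6 was -1.34 ± 0.14 at 100 nM against unstimulated (10 arrays against 2), -0.62 ± 0.15 at 10 nM (8 against 2) and -0.82 ± 0.09 for 100 nM against 10 nM. These are log2 changes of signal plus 166.8, with the standard error of the model, and they understate changes of low signals. Its slope per doubling of pulse number was -0.37 ± 0.06 at 100 nM and -0.41 ± 0.06 at 10 nM.

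Tcf4 (chromosome 18) encodes an E protein, also called E2-2, which binds E boxes as a dimer with tissue-specific helix-loop-helix partners. It is a different gene from the Wnt effector that shares the alias TCF4. Its signal was 8923 and 6558 without GnRH. At 100 nM Tcf4 was 4830 and 5184 after 1 pulse, 4641 and 4880 after 2, 3409 and 2741 after 4, 2747 and 2813 after 8, and 2098 and 1606 under tonic GnRH. At 10 nM Tcf4 was 3616 and 5825, 4209 and 3469, 2279 and 4044, and 2161 and 4157 after 1, 4 and 8 pulses and tonic. Every one of the 18 GnRH arrays was below both unstimulated arrays, and the tonic 100 nM arrays were the lowest, at 23.9% of the unstimulated mean. At 10 nM the letters parted: after 8 pulses and under tonic GnRH array B was below every 100 nM array but those of tonic GnRH, while array C was above all 100 nM arrays of 4 or more pulses. The log2 change was -1.18 ± 0.22 at 100 nM and -1.07 ± 0.23 at 10 nM against unstimulated, and -0.24 ± 0.14 between the doses. In the order of the 10 groups 7 of 9 neighbouring pairs overlapped.

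Zbtb17 (chromosome 4, 141444673 to 141467937), also called Miz-1, encodes a zinc finger protein that activates cell cycle inhibitor genes and represses them when bound to Myc. Its signal was 418 and 1076 without GnRH, so the unstimulated arrays themselves lay far apart. At 10 nM Zbtb17 was 2814 and 2135 after 1 pulse, 1772 and 1918 after 4, 518 and 596 after 8, and 1245 and 1042 under tonic GnRH. At 100 nM Zbtb17 was 1367 and 783, 528 and 504, 363 and 348, 385 and 1528, and 345 and 702 after 1, 2, 4 and 8 pulses and tonic. Only 4 of the 18 GnRH arrays were below both unstimulated arrays and 7 were above both. Against unstimulated 100 nM gave -0.14 ± 0.32 and 10 nM 0.81 ± 0.33, so the description of Zbtb17 as lower with GnRH did not hold at 10 nM. The values turn on which unstimulated array is used: 100 nM gave -0.68 without A and 0.40 without D, and 10 nM 0.26 and 1.35. It was lower with pulse number at 10 nM (-0.56 per doubling), the 1-pulse and 4-pulse arrays standing at 331% and 247% of the unstimulated mean and the 8-pulse arrays at 74.6%. At 100 nM the slope was -0.48 among A arrays and 0.21 among D arrays, with array D at 1528 after 8 pulses and array A at 385.

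Maf1 (chromosome 15, 76351294 to 76354378) encodes the conserved repressor of RNA polymerase III that acts downstream of nutrient and stress signalling. Its signal was 6219 and 8604 without GnRH. At 100 nM Maf1 was 3990 and 4962 after 1 pulse, 4895 and 3991 after 2, 2625 and 2649 after 4, 3719 and 2988 after 8, and 3798 and 3051 under tonic GnRH. At 10 nM Maf1 was 9110 and 9496 after 1 pulse, 6215 and 5093 after 4, 4513 and 3519 after 8, and 4410 and 4059 under tonic GnRH. As for Hes6, both arrays of 1 pulse at 10 nM were above both unstimulated arrays and the other 16 GnRH arrays were below. The lowest group was 4 pulses 100 nM, at 35.6% of the unstimulated mean, and 8 pulses and tonic at 100 nM were at 45.2% and 46.2%. Both arrays of that lowest group have a high Gapdh ratio. The log2 change was -1.0 ± 0.15 at 100 nM, -0.41 ± 0.15 at 10 nM and -0.66 ± 0.10 between the doses.

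Kat2a (chromosome 11, 100704746 to 100712485), also called GCN5, encodes the histone acetyltransferase of the SAGA and ATAC coactivator complexes. Its signal was 1310 and 1230 without GnRH. At 100 nM Kat2a was 850 and 943 after 1 pulse, 1237 and 756 after 2, 866 and 627 after 4, 298 and 234 after 8, and 202 and 359 under tonic GnRH. At 10 nM Kat2a was 932 and 897, 1023 and 511, 834 and 595, and 506 and 415 after 1, 4 and 8 pulses and tonic. The 8-pulse and tonic arrays at 100 nM, at 20.9% and 22.1% of the unstimulated mean, lay below all other arrays, and array A of 2 pulses 100 nM was the sole GnRH array that reached the unstimulated span. The slope per doubling was -0.42 at 100 nM and -0.11 at 10 nM, and the log2 change at 100 nM was -0.98 ± 0.22.

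Smarce1 (chromosome 11, 99209047 to 99231017), also called BAF57, encodes a subunit with a high-mobility-group domain of the BAF and PBAF nucleosome remodelling complexes. Its signal was 2150 and 2308 without GnRH. At 100 nM Smarce1 was 1395 and 1035, 1190 and 1099, 1688 and 1078, 1024 and 1257, and 1007 and 580 after 1, 2, 4 and 8 pulses and tonic. At 10 nM Smarce1 was 1134 and 1332, 941 and 1073, 707 and 960, and 827 and 876 after 1, 4 and 8 pulses and tonic. All 18 GnRH arrays were below both unstimulated arrays, those of a single pulse included (54.5% and 55.3% of the unstimulated mean at 100 and 10 nM). Neither pulse number nor dose ordered the arrays at 100 nM: the slope per doubling was -0.00 and the change from 10 to 100 nM was 0.15 ± 0.12. Smarce1 was -0.91 ± 0.19 at 100 nM and -1.08 ± 0.19 at 10 nM against unstimulated, and was thus the one of the 9 genes with a higher mean at 100 nM than at 10 nM.

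Setd4 (chromosome 16, 93583457 to 93604791) encodes a SET domain protein of the lysine methyltransferase class. Its signal was 738 and 916 without GnRH. At 100 nM Setd4 was 1155 and 776 after 1 pulse, 493 and 644 after 2, 630 and 327 after 4, 235 and 142 after 8, and 951 and 232 under tonic GnRH. At 10 nM Setd4 was 1070 and 1044 after 1 pulse, 673 and 772 after 4, 808 and 543 after 8, and 384 and 451 under tonic GnRH. After 1 pulse its mean was 117% of unstimulated at 100 nM and 128% at 10 nM, and it was lower with each further number of pulses, to 22.8% after 8 pulses at 100 nM. The tonic 100 nM arrays disagreed, with A above both unstimulated arrays and D near the 8-pulse arrays. The log2 change at 100 nM was -0.60 ± 0.28, and -0.74 without tonic 100 nM A. Setd4 was -0.22 ± 0.29 at 10 nM against unstimulated, and its slope was -0.52 per doubling at 100 nM and -0.19 at 10 nM.

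Ash2l (chromosome 8, 25816000 to 25847694) encodes a shared core subunit of the COMPASS and MLL complexes, which methylate histone H3 at active promoters. Its signal was 288 and 898 without GnRH, again far apart. At 10 nM Ash2l was 924 and 599, 1043 and 1081, 1123 and 545, and 589 and 746 after 1, 4 and 8 pulses and tonic. At 100 nM Ash2l was 332 and 227, 591 and 799, 477 and 273, 163 and 1047, and 194 and 269 after 1, 2, 4 and 8 pulses and tonic. Against unstimulated 5 GnRH arrays were below both arrays, 5 were above both and 8 lay between. Its changes against unstimulated were -0.34 ± 0.37 at 100 nM and 0.48 ± 0.37 at 10 nM. Without unstimulated A they were -0.95 and -0.13, and without unstimulated D 0.27 and 1.09, so whether Ash2l was lower with GnRH rests on 1 array. Within letters the change was 0.11 among A arrays and -0.79 among D arrays at 100 nM. It was lower with dose, at -0.98 ± 0.24 from 10 to 100 nM, a comparison in which dose and letter cannot be told apart. Without the 3 arrays of high Gapdh ratio that value was -0.59, and that of Zbtb17 went from -0.90 ± 0.21 to -0.29. This fit also drops the 4-pulse pattern at both doses, so it is not the same comparison.

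Recql5 (chromosome 11, 115892595 to 115933514) encodes a RecQ helicase that restrains recombination and binds RNA polymerase II during elongation. Its signal was 797 and 1190 without GnRH. At 100 nM Recql5 was 694 and 858 after 1 pulse, 591 and 439 after 2, 316 and 119 after 4, 148 and 48 after 8, and 154 and 119 under tonic GnRH. At 10 nM Recql5 was 1107 and 925 after 1 pulse, 815 and 257 after 4, 362 and 90 after 8, and 441 and 261 under tonic GnRH. The highest and lowest group means differed 10.4-fold, the widest span of the 9 genes, from 1 pulse 10 nM to 8 pulses 100 nM at 9.88% of unstimulated. Signals passed the filter level of 427 on 10 arrays, so the lower end lies among signals that the array measures poorly. In this order of groups 9 of 9 neighbouring pairs overlapped. Recql5 was -1.34 ± 0.31 at 100 nM and -0.90 ± 0.32 at 10 nM, with slopes of -0.64 and -0.54 per doubling.

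**Figure D2:**
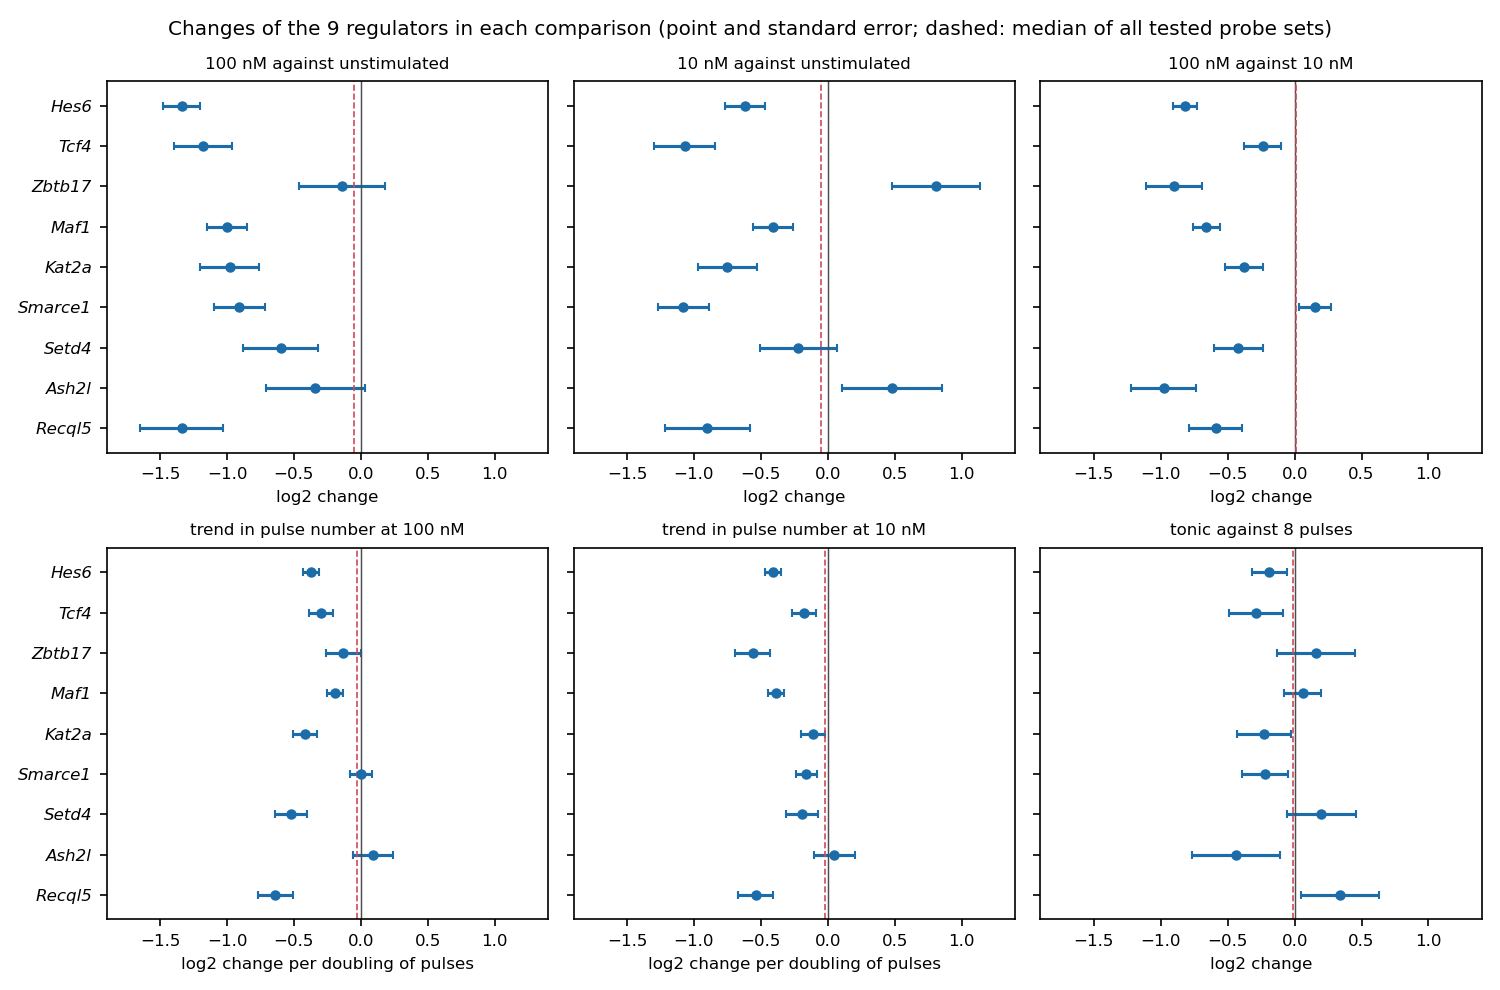
Log2 change (point) and standard error (bar) of each regulator in 6 comparisons; the dashed line is the median of all 8491 tested probe sets. At 100 nM against unstimulated 9 of 9 points are below 0, from -1.34 (Hes6, Recql5) to -0.14 (Zbtb17), beside 56.5% of all tested probe sets. Tonic against 8 pulses has points on both sides of 0.

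After 1 pulse at 10 nM 3 of 9 genes had a log2 change below 0 (Tcf4, Kat2a and Smarce1), with a median of 0.22 over the 9, and after 1 pulse at 100 nM 7 of 9 were below 0, with a median of -0.60. Of all tested probe sets 51.4% were below 0 after 1 pulse at 10 nM and 51.5% after 1 pulse at 100 nM. After 8 pulses the medians were -0.85 at 10 nM and -1.41 at 100 nM, and under tonic GnRH -1.17 and -1.35. The medians of all tested probe sets in these 6 comparisons ran from -0.10 to -0.01. These comparisons share the unstimulated arrays and chose the genes, so no test of the 9 was made on them, and a difference between the doses in the pattern with pulse number was not tested. The slopes per doubling of Hes6 (-0.37 and -0.41), Recql5 (-0.64 and -0.54) and Ash2l (0.09 and 0.05) were close at 100 and 10 nM. Those of Zbtb17 (-0.13 and -0.56), Maf1 (-0.19 and -0.39), Kat2a (-0.42 and -0.11) and Setd4 (-0.52 and -0.19) lay further apart. Tcf4 (-0.30 and -0.18) and Smarce1 (-0.00 and -0.16) were in between. The 100 nM slope includes a 2-pulse group that 10 nM lacks.

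In the same model 6 of the 9 genes were past an adjusted p of 0.05 as lower at 100 nM than unstimulated (Hes6, Tcf4, Maf1, Kat2a, Smarce1 and Recql5), where 7.84% of all tested probe sets were called lower and 6.37% higher. At 10 nM 3 were (Hes6, Tcf4 and Smarce1), against 0.66% lower and 1.25% higher. The trend in pulse number at 100 nM had 5 (Hes6, Tcf4, Kat2a, Setd4 and Recql5), against 3.22% lower and 3.67% higher, and that at 10 nM 4 (Hes6, Zbtb17, Maf1 and Recql5), against 0.542% and 1.55%. From 10 to 100 nM 5 were called lower (Hes6, Zbtb17, Maf1, Ash2l and Recql5), against 12.7% lower and 10.9% higher. None of the 9 was called higher in any of the 6 comparisons, and since these contrasts chose the genes, nothing is read from the counts.

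The counts turn on few arrays, and so do those of all probe sets, whose totals are given below. Without unstimulated A or D, fewer probe sets in all were called at 100 nM and at 10 nM. The same held without the arrays of high Gapdh ratio for the 100 nM trend and between doses. Lost calls are therefore not particular to the genes described, and whether these lost more than their share was not tested. With 1 unstimulated array left the standard error is also wider, so a call can be lost while its value holds. Without unstimulated A and D in turn, Hes6 at 10 nM was -0.60 and -0.63, beside -0.62. Kat2a at 100 nM was -0.94 and -1.02, beside -0.98. Tcf4 at 100 nM moved more, to -0.97 and -1.40, beside -1.18. Without unstimulated D 3 genes stayed past the threshold at 100 nM, with Recql5 at -1.10 and adjusted p = 0.161 in limma; without unstimulated A 4 did, with Tcf4 at -0.97 and adjusted p = 0.0629. At 10 nM 0 remained without either unstimulated array, and 1 with array medians set equal. For the 100 nM trend 3 remained without 1 pulse A, 1 pulse D or 8 pulses D, and also 3 without the 3 arrays of high Gapdh ratio, when Hes6 had a slope of -0.25. For the 10 nM trend 1 remained without 1 pulse C, and 2 without 1 pulse B or 8 pulses C; from 10 to 100 nM 2 remained without the arrays of high Gapdh ratio. Setting array medians equal moved the split of all called probe sets from 106 higher and 56 lower to 100 and 18 at 10 nM, from 312 and 273 to 305 and 144 for the 100 nM trend, from 132 and 46 to 138 and 25 for the 10 nM trend, and from 927 and 1078 to 695 and 1248 between doses.

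Tonic exposure against 8 pulses is the comparison that the rule choosing the genes does not name. It was tested as the mean over both doses (4 arrays against 4). Its arrays did enter the comparisons that chose the genes, so the test is not free of that choice. A gene chosen for low 8-pulse arrays leans toward tonic above 8 pulses. Setd4, past the threshold in the 100 nM trend, had 8-pulse arrays at 235 and 142 there. No gene of the 9 passed the threshold, limma adjusted p running from 0.99 to 0.994, and 0 of 8491 probe sets did (0%), with 415 at an unadjusted p under 0.05. The random letter block, the fixed letter block and the fit with no intensity trend each called 1 probe set, none of them among the 9 genes. Hes6 and Maf1 had the narrowest intervals: -0.19 ± 0.13 (95% interval -0.47 to 0.08) and 0.06 ± 0.14 (-0.23 to 0.35). Tcf4, Kat2a and Smarce1 were -0.29 (-0.71 to 0.14), -0.23 (-0.65 to 0.20) and -0.22 (-0.58 to 0.14). The intervals of Zbtb17 (-0.45 to 0.77), Setd4 (-0.34 to 0.74), Ash2l (-1.14 to 0.26) and Recql5 (-0.26 to 0.94), like that of Tcf4, reach past changes of 0.7 on the log2 scale in at least 1 direction. The data therefore do not show that the patterns act alike on these genes. For Setd4 and Zbtb17 the mean joins opposite values at the 2 doses. Setd4 was 0.92 ± 0.36 at 100 nM and -0.51 ± 0.36 at 10 nM, a difference of 1.43 ± 0.51 (unadjusted p = 0.0122, adjusted p = 1 in limma). Zbtb17 was -0.54 ± 0.41 and 0.85 ± 0.41, a difference of -1.39 ± 0.58 (unadjusted p = 0.0278, adjusted p = 1 in limma). Over all probe sets 0 passed the threshold for that difference in limma, with 181 at an unadjusted p under 0.05. The difference for Setd4 was 0.69 without tonic 100 nM A and 2.18 without tonic 100 nM D. For Zbtb17 it was -0.58 without 8 pulses 100 nM D and -2.20 without 8 pulses 100 nM A. The arrays of each of these pairs lay far apart, and 2 arrays cannot show which of them is unusual.

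**Figure D3:**
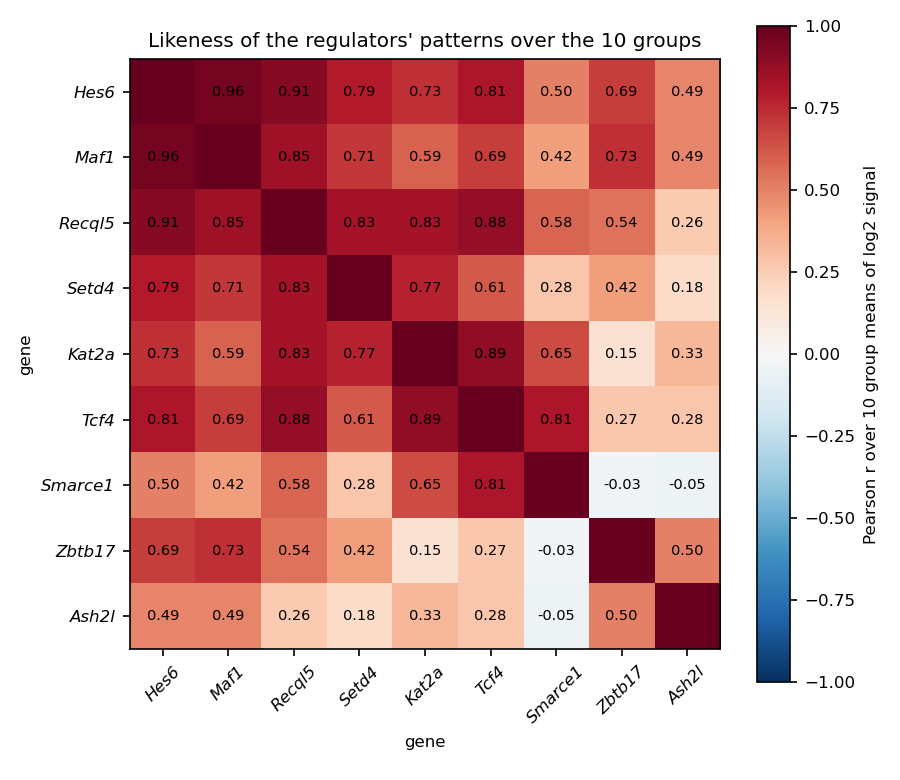
Pearson correlation of each pair of regulators over the 10 group means of log2 signal, in colour and as numbers. Hes6 and Maf1 are the most alike pair at 0.96, and the rows of Smarce1, Zbtb17 and Ash2l are the palest, with Smarce1 at -0.03 and -0.05 with the other two.

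Over the 10 group means, 34 of the 36 pairs of genes correlated above 0, with a median of 0.60, and 9 pairs reached 0.80 or more. The points share the dose, the letters and the scaling, and the genes were chosen for a common direction, so these values are a description. Hes6 and Maf1 were at 0.96 and Hes6 and Recql5 at 0.91. Tcf4 was nearest to Kat2a (0.89), and Smarce1 reached 0.81 with Tcf4. Smarce1 was at -0.05 with Ash2l and -0.03 with Zbtb17.

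Among 6215 other genes, the most alike to Hes6 over the 10 group means was Tagln3, a neuronal calponin-family protein (r = 0.983; -0.88 ± 0.15 at 100 nM). Each gene named here has the highest of 6215 correlations over 10 points that share dose, letters and scaling. High values are therefore a description, and shared regulation was not tested. Tcf4 was most like Sgpp1, a sphingosine phosphate phosphatase (r = 0.982; -0.90 ± 0.17), Recql5 like Sirpa, an inhibitory membrane receptor (r = 0.977; -0.91 ± 0.19), and Maf1 like the tetraspanin Tspan4 (r = 0.98; -0.49 ± 0.13). For Kat2a it was Rfk, riboflavin kinase (r = 0.966; -0.20 ± 0.12), and for Smarce1 Sstr2, a somatostatin receptor (r = 0.961; -0.35 ± 0.17). For Setd4 it was 2510002D24Rik (r = 0.956; -0.14 ± 0.15), and for Zbtb17 the transketolase gene Tkt (r = 0.928; -0.11 ± 0.13). Ash2l had the lowest such value, 0.883 with Nsf (-0.43 ± 0.26), which encodes a membrane fusion ATPase. A high correlation thus went with a much smaller change for Rfk (beside -0.98 for Kat2a) and Sstr2 (beside -0.91 for Smarce1).

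**Figure D4:**
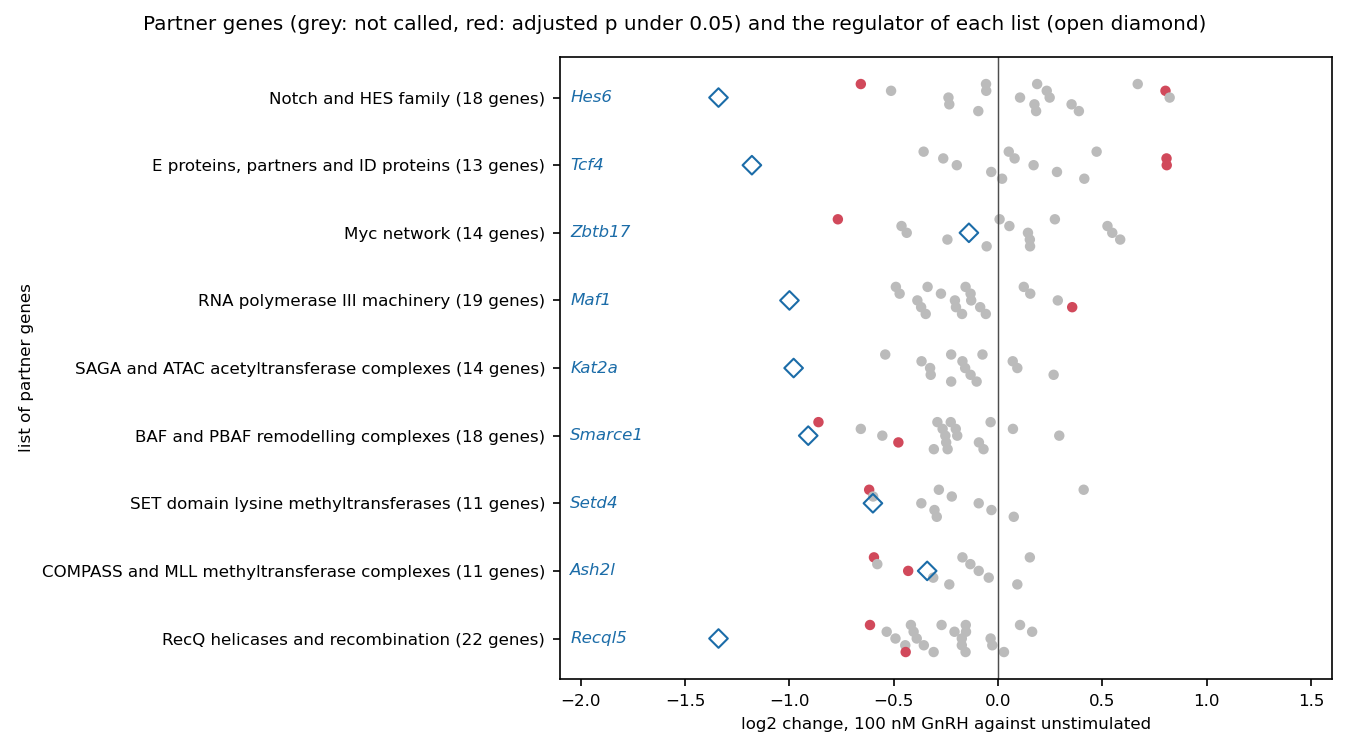
Log2 change at 100 nM against unstimulated of the tested genes of 9 lists, each list being the family or complex of 1 regulator (open diamond); red points have an adjusted p under 0.05. Hes6, Tcf4, Maf1, Kat2a, Smarce1 and Recql5 lie left of all tested genes of their own list.

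The families and complexes in which the 9 proteins work were counted in the same fit, with 137 tested partner genes in all, those on several lists counted once. At 100 nM against unstimulated 4 partners were called higher (2.92%) and 9 lower (6.57%), beside 6.37% and 7.84% of all probe sets, and their median change was -0.16 against -0.05 for all probe sets. Hes6, Tcf4, Maf1, Kat2a, Smarce1 and Recql5 had lower values than any tested gene of their own list, in a comparison that chose them.

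In the Notch and HES family around Hes6, 1 of 18 tested genes was called higher and 1 lower. Numb, which restrains Notch signalling, rose by 0.80 ± 0.13 (limma adjusted p = 0.000602), with pulse number too (0.32 per doubling at 100 nM and 0.25 at 10 nM, the last lost without 1 pulse B, 1 pulse C or 8 pulses C). Tle1, a corepressor that Hairy proteins recruit, fell by 0.66 ± 0.20 (adjusted p = 0.0361), a call lost without either unstimulated array. Among 13 E proteins, partners and inhibitors around Tcf4, 2 were called higher and 0 lower. These were Id1 (0.81 ± 0.16, adjusted p = 0.00301) and Id2 (0.81 ± 0.16, adjusted p = 0.00308), which hold E proteins in dimers that do not bind DNA. Both calls were lost without unstimulated D. Id2 and Id3 also rose with pulse number at 100 nM (0.31 and 0.23 per doubling), Id2 no longer past the threshold without 1 pulse D and Id3 without each of 6 arrays in turn.

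Of 14 Myc network genes around Zbtb17, Mxd3, a Max partner that represses, fell by 0.77 ± 0.13 at 100 nM (adjusted p = 0.000924) and with pulse number at 10 nM (-0.23 per doubling). The second call, at an adjusted p of 0.0407 in limma, was lost under both other scalings of the arrays. Of 19 genes of the RNA polymerase III machinery that Maf1 restrains, Polr2h, a subunit shared by the polymerases, rose by 0.35 ± 0.11 (adjusted p = 0.0427), a call lost without either unstimulated array and with array medians set equal. The list's median was -0.17, and Snapc2, Polr2e and Gtf3a fell with pulse number at 100 nM (-0.22, -0.21 and -0.17 per doubling). These calls were lost under quantile normalisation and with array medians set equal.

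Of 14 tested SAGA and ATAC genes 0 were called at 100 nM, beside -0.98 for Kat2a, and the median was -0.16. Chrac1 fell with pulse number at 100 nM (-0.19 per doubling, adjusted p = 0.0212), a call lost without 1 pulse D, 8 pulses A or 8 pulses D. Of 18 BAF and PBAF genes around Smarce1, Actl6a, an actin-related subunit, fell by 0.86 ± 0.18 (adjusted p = 0.00303) and Dpf2 by 0.48 ± 0.15 (adjusted p = 0.0411), and the list's median was -0.25. Actl6a lost its call without unstimulated D and Dpf2 under quantile normalisation and without either unstimulated array.

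Of 11 SET domain methyltransferases around Setd4, Ehmt2, which methylates histone H3 in repressed chromatin, fell by 0.62 ± 0.16 at 100 nM (adjusted p = 0.0166, lost without unstimulated D) and by 0.28 per doubling of pulses at 100 nM (adjusted p = 0.017, lost without 1 pulse A, 1 pulse D or 8 pulses A). Of 11 COMPASS and MLL genes around Ash2l, Psip1, a chromatin tether, fell by 0.60 ± 0.14 (adjusted p = 0.00809) and Pagr1a by 0.43 ± 0.12 (adjusted p = 0.0222). Psip1 was also the sole partner called at 10 nM against unstimulated (-0.72 ± 0.14), and each of these 3 calls was lost without either unstimulated array. Of 22 genes of RecQ helicases and recombination, Top3b, a topoisomerase, fell by 0.61 ± 0.13 (adjusted p = 0.00386, lost without unstimulated A) and Rpa2, of the single-strand binding protein, by 0.44 ± 0.13 (adjusted p = 0.0331, lost without unstimulated D and under quantile normalisation). The list's median was -0.24, beside -1.34 for Recql5.

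Over the other comparisons the partners had 3 genes called higher (2.19%) and 5 lower (3.65%) for the 100 nM trend, beside 3.67% and 3.22% of all probe sets, and 1 in each direction (0.73%) for the 10 nM trend, beside 1.55% and 0.542%. From 10 to 100 nM 16 were higher (11.7%) and 20 lower (14.6%), near the 10.9% and 12.7% of all probe sets, and dose and letter cannot be told apart there; Actl6a (-0.70 ± 0.11), Ehmt2 (-0.63 ± 0.11), Rpa1 (-0.53 ± 0.12) and Snapc2 (-0.53 ± 0.09) were the lowest of their lists, and Bcl6 (0.70 ± 0.14) and Numb (0.64 ± 0.09) the highest. In tonic against 8 pulses 0 of 137 were called.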

How the data were processed

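The deposited values are probe set signals, array intensities that the authors made with MAS5 per the submitters' processing notes; which version and target it was run with is not stated in the labels. The 2% trimmed mean of each array was 2501.25 to 2501.75, and this scaling was kept. Groups come from the titles.

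Of 12488 probe sets (66 controls left out), 8491 passed 427, the 40th percentile of the table, on 2 or more arrays. A model of group means over all 20 arrays was fitted to log2(signal + 166.8), the 25th percentile, with limma 3.58.1 (R 4.3.3) and an intensity trend, with two-sided p-values adjusted by Benjamini-Hochberg over the 8491, and was tested on simulated data. Trends are slopes in log2 pulse number over pulsed groups; 100 nM against 10 nM uses the patterns given at both doses.

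The platform annotation names 10855 probe sets with 1 gene and 396 with several. The members, the partner lists, written from family or complex, and the tests were chosen with earlier results of these data known. Named are the 9 genes, at most 3 called partners of each list in each comparison (a selection is given) and the gene most like each member. Markers of gonadotropes and of other cells were also listed.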

Additional observations from a re-analysis of the deposited data

How the results depend on the processing

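The fit was repeated under 32 alternatives, of which 20 leave out an array. The main counts of called probe sets were 1207 (100 nM against unstimulated), 162 (10 nM against unstimulated), 585 (100 nM trend), 178 (10 nM trend), 2005 (100 nM against 10 nM) and 0 (tonic against 8 pulses). With groups from the characteristics each was 0. With only the 12 samples whose labels agree they were 156, 15, 79 and 19 in the first 4. The letter pairs arrays by number alone: residuals of arrays sharing a letter correlated over 0.1 in 6 of 6 pairs of groups for B and C and in 14 of 15 for A and D. With the letter as a replicate block the count was 1872 at 100 nM, 1104 and 464 for the trends and 1 for tonic against 8 pulses, and 10 nM against unstimulated and 100 nM against 10 nM could not be fitted; as a random block (correlation 0.175) it was 972, 413 and 1 for the trends and tonic, and 1139 between doses. Of the 9 genes, the fixed and the random block brought Maf1 past the threshold in the 100 nM trend (limma adjusted p = 0.0724 without, 0.0379 and 0.0368 with them) and Smarce1 after 4 pulses at 100 nM (0.0743 without, 0.0333 and 0.0366 with them). The fixed block did so for Smarce1 after 2 pulses at 100 nM, and the random block ended the dose call of Recql5 (adjusted p = 0.108). Without the arrays of high Gapdh ratio (comparisons then over the remaining patterns) it was 250 for the 100 nM trend and 679 between doses, with the compared groups alone 299 for the 100 nM trend, with no filter 103 and with no intensity trend 90 at 10 nM, and 1 for tonic with no intensity trend. Leaving out 1 array gave 365 to 1351, 34 to 226, 253 to 629, 39 to 206, 1537 to 2229 and 0 to 1 in the same order. The lowest at 100 nM were without unstimulated D (365) and A (493), at 10 nM without unstimulated A (34) and D (36), and for the trends without 1 pulse D (253) and 1 pulse 10 nM C (39). The other probe sets of a gene could not be tried, since each of the 9 genes has 1.

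With groups from the characteristics 37 of 135 values of the 9 genes had the other sign. Among those that had been called, or that belong to tonic against 8 pulses, they were 0.12 for Hes6 at 10 nM and 0.03 in tonic against 8 pulses, 0.10 for Tcf4 in the 100 nM trend, 0.17 and 0.11 for Maf1 under tonic 100 and 10 nM, 0.08 and 0.42 for Recql5 at 100 nM and after 4 pulses 100 nM, and 0.19, -0.13 and 0.06 for Smarce1, Setd4 and Ash2l in tonic against 8 pulses. Among called partners they were 0.12 for Tle1, -0.02 for Polr2h, 0.01 for Actl6a and 0.09 for Ehmt2 at 100 nM, and -0.07 for Id2 in the 100 nM trend. Zbtb17 in tonic against 8 pulses was -0.25 without the arrays of high Gapdh ratio. Leaving out 1 array, tonic against 8 pulses ran from -0.25 to 0.56 for Zbtb17, -0.03 to 0.14 for Maf1, -0.17 to 0.58 for Setd4 and -0.91 to 0.03 for Ash2l, with the other sign in 7 such fits: -0.25 and -0.03 for Zbtb17 without 8 pulses 100 nM A and tonic 100 nM D, -0.02, -0.02 and -0.03 for Maf1 without tonic 100 nM A, 8 pulses 100 nM D and 8 pulses 10 nM C, -0.17 for Setd4 without tonic 100 nM A and 0.03 for Ash2l without 8 pulses 100 nM D. The Tcf4 trend at 100 nM lost its call in 21 alternatives and the dose call of Recql5 in 17. Both lay near the threshold in the main fit (limma adjusted p = 0.0495 and 0.0395). Outside the regrouping by characteristics, the Tcf4 slope stayed between -0.32 and -0.28. The Recql5 value there ran from -0.99 to -0.44. The cause of the lost calls was not tested. Recql5, Setd4, Kat2a, Ash2l and Zbtb17 lie near the filter level on several arrays.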
